A study of Homo sapiens with 12 samples.

Results

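Krüppel-like factor (KLF) mRNAs were followed through a time course of actinomycin D (ActD) in an Ewing sarcoma cell line. The set was 10 KLF symbols, KLF2, KLF3, KLF4, KLF5, KLF6, KLF9, KLF10, KLF11, KLF13 and KLF16, all of them found among the 26334 genes of the count table. The table held 17 KLF symbols in all, so 7 KLF genes lay outside the set. The 12 libraries came from shA673-1c cells, which the labels give as Ewing sarcoma cells; the labels do not say what the prefix of the name stands for. All cells were grown in medium with blasticidin and zeocyn, seeded in 6-well plates and given 5 µM ActD for 0, 1, 2 or 4 h, with 3 biological replicates at each time. The titles of all 12 libraries, at every time, also carry the mark CTL, and no other arm was analysed here. Within the course the 0 h samples were the only controls. No vehicle time course was analysed here, so ActD and hours in the plate cannot be told apart. RNA was poly(A)-selected and sequenced as stranded libraries.

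ActD binds DNA and blocks RNA polymerases, so that after its addition an mRNA level reports mainly on how fast existing molecules are lost. KLF proteins are transcription factors that bind GC-rich and CACC elements through C2H2 zinc fingers at the carboxyl end, and they differ in the partners that their amino-terminal regions recruit. KLF2, KLF4, KLF5 and KLF6 carry activation domains and work with acetyltransferase coactivators, KLF3 represses through the CtBP corepressors, and KLF9, KLF10, KLF11, KLF13 and KLF16 bind the SIN3 corepressor. Several KLF genes are switched on quickly by serum, growth factors or mechanical stress, and short-lived mRNA is a known property of such genes.

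The 3′ untranslated region (3′UTR) is where many elements that shorten an mRNA's life lie, among them the AU-rich pentamer ATTTA, the longer nonamer TTATTTATT and the Pumilio motif TGTANATA, written here as DNA and counted on the mRNA strand only, with overlaps allowed. Stretches of 30 bases of the reference 3′UTR are shown for 4 members, with the motif in capitals: KLF2 and KLF16, whose levels fell most and least steeply, KLF5, which with KLF16 held the nonamer, and KLF6, the most abundant at 0 h. They lie at bases 70 to 99 (KLF2), 1291 to 1320 (KLF5), 719 to 748 (KLF6) and 739 to 768 (KLF16) after the stop codon of the canonical GENCODE transcript on GRCh38.
KLF2: actgtgactggtATTTAttggacccagaga
KLF5: ttgtttatctTTATTTATTttgtggtaata
KLF6: gtATTTAcaaatataacacaacaATTTAac
KLF16: gaatcctggcTTATTTATTttcctctgtcc

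All 10 members held ATTTA in the canonical 3′UTR, from 2 matches in KLF4 and KLF16 to 9 in KLF3. Of the 10814 tested genes with a single canonical 3′UTR, 75.1% held at least 1. Per kilobase of 3′UTR, the count ran from 0.893 in KLF13 and 0.971 in KLF16 to 3.03 in KLF5, and KLF2, KLF10, KLF11, KLF4 and KLF3 lay between 2.12 and 2.58. The median over all genes was 1.78 per kilobase. KLF9 held 2.52, and KLF6 held 1.69, below that median. The 2 members with the lowest density, KLF13 and KLF16, had the shallowest slopes described below. KLF6, the next lowest in density, had a slope of -0.56, and KLF5, the highest, had one of -0.69. The nonamer occurred once in KLF5 and once in KLF16 and in 10.1% of all genes. A Pumilio motif was found in KLF2, KLF3, KLF5, KLF6, KLF9, KLF13 and KLF16, with 3 matches in KLF5 and in KLF9, and in 31.7% of all genes. A nonamer and a Pumilio motif were both present in KLF16, the member with the slope nearest 0, and in KLF5. The nonamer was not in the KLF2 window or elsewhere in the KLF2 3′UTR. A relation between these motifs and the slopes of the members was not tested. Over all genes the median slope was 0.08 log2 units per hour without ATTTA and -0.01 with it, 0.01 and -0.05 for the nonamer, and 0.04 and -0.05 for the Pumilio motif. Presence went with length, since genes without ATTTA had a median 3′UTR of 396.5 bases and those with 11 or more matches one of 4846 bases. These matches are descriptions of reference sequence, and binding at them was not measured.

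The canonical transcripts lay on 8 chromosomes of GRCh38. KLF2 (chr19:16324826-16328685, plus strand) and KLF16 (chr19:1852399-1863579, minus strand) were on the same chromosome. KLF4 (chr9:107484852-107489769) and KLF9 (chr9:70384604-70414657) were both on the minus strand of chromosome 9. The others were KLF3 (chr4:38664199-38701517, plus), KLF5 (chr13:73059005-73077538, plus), KLF6 (chr10:3775996-3785209, minus), KLF10 (chr8:102648784-102655725, minus), KLF11 (chr2:10043550-10054836, plus) and KLF13 (chr15:31326835-31377899, plus). Their 3′UTRs ran from 899 bases in KLF4 to 5600 in KLF13, against a median of 1417 over all genes. The 3′UTR of KLF16 was 36.3% A and T, the lowest of the 10, and that of KLF5 was 68.2%, the highest.

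Library totals ranged from 9147018 to 11194705 counts, and the 12032 genes averaging 10 or more counts per library were tested. Levels are CPM (read counts scaled to a common library size) after TMM scaling, which holds the typical gene constant between libraries, so each change is relative to the other mRNAs of the library, and fewer cells and less RNA per cell cannot be told apart. The immediate early genes JUN and IER2 fell with slopes of -0.89 and -0.84 log2 units per hour, EGR1 with -0.56 and FOS with -0.40. The 11 Ewing sarcoma markers summed to between 861 and 1028 CPM, although CD99, a surface marker of this tumour, was listed at 0 in all 12 libraries. Of that sum EWSR1 made up 318 CPM at 0 h and 412 CPM at 4 h on average, and CCK under 1 CPM at both times. Lists of 5 leukocyte, 5 endothelial and 4 epithelial markers each summed to at most 1.31 CPM, with CD3E and KRT14 among those at 0. The fibroblast list, almost all of it COL1A1, summed to between 2733 and 3062 CPM at 0 h and 4544 and 5142 CPM at 4 h, while DCN, LUM and PDGFRA averaged under 1 CPM; its part in the KLF values was not tested.

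At 0 h the members spanned a wide range of abundance. Per kilobase of the canonical transcript, KLF6 stood first at 33.1 ± 1.01 CPM per kb (SD, n = 3), followed by KLF3 at 14.3 ± 0.246 and KLF16 at 12.6 ± 0.830. KLF13 (6.33 ± 0.593) and KLF10 (6.26 ± 0.917) overlapped, as did KLF5 (2.59 ± 0.570) and KLF2 (2.16 ± 0.905). KLF11 lay at 3.36 ± 0.274, and its lowest library, 3.15, was below the highest of KLF5 and of KLF2, both 3.20. KLF4 lay at 1.08 ± 0.0277 and KLF9 at only 0.0658 ± 0.0168. By 4 h the order at the top was different, with KLF16 first at 11.2 ± 0.548, KLF6 second at 7.33 ± 0.614 and KLF3 next at 6.18 ± 0.575; the KLF6 and KLF3 libraries were then apart by only a small gap, between 6.66 and 6.62. KLF2 had become the lowest of the 9 members above trace level, at 0.0869 ± 0.0488.

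The mix of KLF mRNA in the cells was different at 4 h. Summed over the 10 members, the level per kilobase was 81.8 ± 3.02 at 0 h, 54.4 ± 2.88 at 1 h, 34.9 ± 2.16 at 2 h and 31.0 ± 0.258 at 4 h (SD, n = 3). KLF6 made up 40.5% ± 1.24 of that sum at 0 h and 23.7% ± 2.10 at 4 h, and KLF16 made up 15.4% ± 0.484 and 36.2% ± 1.89. No KLF6 or KLF16 library at 4 h overlapped the 0 h libraries in its share. The share of KLF13 was 7.75% ± 0.859 at 0 h and 13.1% ± 1.65 at 4 h, that of KLF10 was 7.63% ± 0.920 and 1.84% ± 0.909, and that of KLF3 was 17.5% ± 0.863 and 20.0% ± 1.70. These shares rest on 1 transcript model per gene and no test was run on them.

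Across the time course, 8 of the 9 members tested fell by slope (edgeR quasi-likelihood test, time as a number, adjusted p under 0.05), against 32.1% of all genes. Of these members 0 rose, whether by edgeR, at an unadjusted p under 0.05 or by DESeq2, against 30.7% of all genes. The median slope of the 9 was -0.56 log2 units per hour, and that of all genes was 0.01. KLF2 fell at -1.24 (SE 0.113, adjusted p = 1.06e-07), the 12th steepest slope of all genes, and KLF10 at -0.93 (SE 0.0688, adjusted p = 1.23e-08), the 64th. Slopes of KLF5 (-0.69), KLF4 (-0.57), KLF11 (-0.56) and KLF6 (-0.56) followed, all steeper than -0.49, the slope that bounds the lowest 5% of genes. KLF3 (-0.31, SE 0.0376) and KLF13 (-0.16, SE 0.0271) fell more slowly. The slope of KLF16 was -0.05 (SE 0.0247, adjusted p = 0.0772) with a 95% interval from -0.10 to 0.00; a fit blocked on replicate number gave -0.05 with an adjusted p of 0.0476, and it was also called with library totals (-0.09) and with 1, 2 and 4 h only (-0.09).

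Neighbours in that order were compared by the slopes of their single replicates. KLF2 ran from -1.44 to -1.02 and KLF10 from -1.04 to -0.82, which overlap. KLF5 (-0.78 to -0.63), KLF4 (-0.79 to -0.49), KLF11 (-0.57 to -0.55) and KLF6 (-0.58 to -0.53) each overlapped with the next, so the order of neighbours is not resolved. Every replicate of KLF5 was steeper than those of KLF11 and KLF6. Gaps without overlap lay between KLF10 and KLF5, between KLF6 and KLF3 (-0.34 to -0.29), between KLF3 and KLF13 (-0.21 to -0.14) and between KLF13 and KLF16 (-0.10 to -0.02). Slopes convert to half-lives only if loss was exponential, with no synthesis, and the typical mRNA stayed constant, as TMM scaling sets it. The half-lives would then be 0.805 h for KLF2 (95% interval 0.674 to 0.998), 1.07 h for KLF10 (0.927 to 1.27), 1.80 h for KLF6 (1.37 to 2.63), 3.27 h for KLF3 (2.59 to 4.42) and 6.19 h for KLF13 (4.57 to 9.60). The slower ones depend most on the scaling, since with GAPDH plus ACTB scaling the slopes were -0.44 for KLF3 and -0.30 for KLF13, beyond the 95% interval of either. The exponential shape was not kept by every member, as the intervals below show. Of the members given a half-life here, KLF6 and KLF3 had a slower loss after 2 h, so their values average over unlike rates. On 0 to 2 h alone the slope was -1.15 for KLF6 and -0.53 for KLF3. That of KLF13 was -0.07 on 0 to 2 h alone and was not called.

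Among the activators, KLF2, known from endothelial cells and T lymphocytes, had the deepest loss. Its counts in replicates 1, 2 and 3 were 92, 48 and 52 at 0 h, 35, 29 and 18 at 1 h, 10, 6 and 10 at 2 h, and 2, 4 and 1 at 4 h. Replicate 1 stood well above the others at 0 h, and the groups of successive times did not overlap in CPM. At 4 h 4.19% of the 0 h level was left, with a counting interval of 1.66% to 8.79% on 7 counts in all. The log2 change from 0 to 1 h was -1.22 (SE 0.31, adjusted p = 0.0559), and in the fit with the replicate block the same change had an adjusted p of 3.66e-05. From 1 to 2 h it fell by 1.58 (adjusted p = 0.0194), a call that was lost without replicate 1 (adjusted p = 0.0869) or replicate 2 (0.223). From 2 to 4 h the change was -1.72 (adjusted p = 0.0721; 0.0113 with the block).

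KLF4, one of the reprogramming factors, was close to the detection limit of this depth. Its counts were 33, 32 and 36 at 0 h, 28, 22 and 20 at 1 h, 13, 13 and 8 at 2 h, and 8, 8 and 4 at 4 h. The 4 h libraries lay below all 0 h and 1 h libraries and overlapped those at 2 h. It fell from 1 to 2 h by 0.97 on the log2 scale (SE 0.28, adjusted p = 0.0303), and this call was lost without any 1 of the replicates (adjusted p 0.0792 to 0.186) and with DESeq2 (0.0814). Its change from 0 to 4 h was -2.12 (SE 0.30, adjusted p = 2.80e-05).

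KLF5, a growth-promoting factor of epithelial cells, kept most of its level for the first hour. Counts were 109, 87 and 78 at 0 h, 88, 66 and 58 at 1 h, 27, 27 and 22 at 2 h, and 13, 17 and 12 at 4 h. The 0 and 1 h groups overlapped, and the replicates were at 76.0% to 78.6% of their own 0 h level after 1 h. That change of -0.37 did not pass (adjusted p = 0.451; 0.0504 with the block). The drop was then steep, by 1.41 on the log2 scale from 1 to 2 h (SE 0.23, adjusted p = 0.000748). From 2 to 4 h the change was -0.72 (adjusted p = 0.0789; 0.0185 with the block).

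KLF6, an early response gene with a wide tissue range, was the most abundant member at 0 and 1 h and had the largest difference between its early and late rates. Counts were 1554, 1623 and 1659 at 0 h, 763, 758 and 652 at 1 h, 354, 306 and 261 at 2 h, and 305, 354 and 273 at 4 h. The first 3 time points were fully separated, whereas the 2 and 4 h groups overlapped. The level fell by 1.14 (SE 0.10, adjusted p = 0.000114) in the first hour and by 1.18 (SE 0.11, adjusted p = 1.21e-05) in the second, to 20.0% of the start. Between 2 and 4 h the change was 0.14 (SE 0.12, adjusted p = 0.396), and it was -0.16 when libraries were scaled to GAPDH plus ACTB. Fitted on 0 to 2 h only, the KLF6 slope was -1.15 in place of -0.56. The first-hour call of KLF6 was lost without replicate 2 (adjusted p = 0.0726), with a change of -1.18.

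KLF3, the CtBP-binding repressor, also had a lower rate of loss late in the course, from a shallower start. Counts were 811, 815 and 916 at 0 h, 565, 546 and 666 at 1 h, 382, 341 and 413 at 2 h, and 302, 320 and 331 at 4 h. No overlap was seen among 0, 1 and 2 h, and the 4 h libraries, at 30.9 to 37.0 CPM, overlapped those at 2 h, at 34.5 to 39.9 CPM. The fall was 0.51 in the first hour (SE 0.08, adjusted p = 0.00292) and 0.58 in the second (SE 0.08, adjusted p = 0.000251), and the change from 2 to 4 h was -0.12 (SE 0.09, adjusted p = 0.326), or -0.42 (adjusted p = 0.0110) with GAPDH plus ACTB scaling. The first-hour call was lost without replicate 1 (adjusted p = 0.172) or replicate 2 (0.0974). The slope on 0 to 2 h alone was -0.53. An antisense gene, KLF3-AS1, had 3 to 17 counts per library, and the strand setting of the counting is not given in the sources used here.

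Of the SIN3-binding members, KLF10 and KLF11 are early genes of the TGF-beta response. KLF10 counts were 200, 207 and 171 at 0 h, 130, 124 and 107 at 1 h, 37, 41 and 41 at 2 h, and 22, 13 and 10 at 4 h. Its 4 groups were fully separated, and 8.94% of the 0 h level was left at 4 h (counting interval 6.45% to 12.1%). It fell by 1.54 from 1 to 2 h (SE 0.21, adjusted p = 0.000157) and by 1.26 from 2 to 4 h (SE 0.28, adjusted p = 0.00397; 0.103 without replicate 2). The first-hour change of -0.67 had an adjusted p of 0.0565, of 2.99e-05 with the replicate block and of 0.0306 with DESeq2.

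KLF11 fell over the first 2 h, and its rate of loss was lower after that. Counts were 134, 132 and 167 at 0 h, 93, 81 and 114 at 1 h, 40, 36 and 41 at 2 h, and 26, 32 and 33 at 4 h. The times 0, 1 and 2 h did not overlap, and at 4 h 24.1% of the 0 h level was left (19.0% to 30.3%). It fell by 0.58 in the first hour (SE 0.13, adjusted p = 0.0292), a call lost without any 1 of the replicates (adjusted p 0.0777 to 0.342), and by 1.23 in the second (SE 0.15, adjusted p = 7.48e-05). From 2 to 4 h the change was -0.23 (SE 0.18, adjusted p = 0.390), and the slope on 0 to 2 h alone was -0.86. The difference between KLF10 and KLF11 in that interval was not tested.

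KLF13, which acts on the CCL5 promoter in T lymphocytes, was called lower in the last interval but not in the earlier ones. Counts were 454, 403 and 526 at 0 h, 395, 420 and 488 at 1 h, 369, 370 and 431 at 2 h, and 208, 278 and 284 at 4 h. The first 3 times overlapped, and the 4 h libraries lay below all of them in CPM. Changes were -0.08 in the first hour (adjusted p = 0.839) and -0.09 in the second (0.628), and the level then fell by 0.47 from 2 to 4 h (SE 0.11, adjusted p = 0.00434; 0.0632 without replicate 2). On 0 to 2 h alone the slope of KLF13 was -0.07 with an adjusted p of 0.2495.

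KLF16, a repressor described at dopamine receptor genes, had the slope nearest to 0 and the smallest change from 0 to 4 h of the 9, although KLF13 changed less from 0 to 1 h and from 1 to 2 h. Counts were 393, 385 and 382 at 0 h, 452, 383 and 399 at 1 h, 395, 309 and 361 at 2 h, and 260, 350 and 295 at 4 h. In CPM the highest library at 4 h, 33.8, lay just below the lowest at 0 h, 33.9, while the 1 and 2 h libraries overlapped those at 0 h. The log2 change from 0 to 4 h was -0.16 with a 95% interval from -0.38 to 0.05 (adjusted p = 0.166), and it was -0.31 (adjusted p = 0.0156) with library totals and -0.71 (2.48e-05) with GAPDH plus ACTB scaling. KLF9, a hormone-responsive member, had 3, 3 and 5 counts at 0 h, 3, 4 and 7 at 1 h, 6, 2 and 3 at 2 h, and 0, 2 and 1 at 4 h, below the limit for testing. With the limit lowered to a mean of 1 count, its slope was -0.33 with a 95% interval from -0.69 to 0.03 (adjusted p = 0.114), so that a change was not detectable at this depth.

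Interval by interval, the second hour held most calls. From 0 to 1 h, 3 of the 9 members were lower (KLF3, KLF6 and KLF11), against 2.24% of all genes, and 0 were higher by edgeR, at an unadjusted p under 0.05 or by DESeq2, against 0.349%. With the replicate block, 5 were lower, KLF2 and KLF10 in addition, whereas 0 were lower without replicate 2, 1 without replicate 1 and 2 without replicate 3. From 1 to 2 h, 7 members were lower, all except KLF13 and KLF16, against 12.5% of all genes, and 0 were higher by these 3 criteria, against 3.76%. The count lower was 5 without replicate 1 or replicate 2, and 6 without replicate 3 or with DESeq2. From 2 to 4 h, 2 members were lower (KLF10 and KLF13), which is near the share of all genes, 18.3%. Again 0 were higher by the same criteria, against 12%. Here the block gave 4, with KLF2 and KLF5, and the count without replicate 2 was 0. Shares of all genes in single intervals are given for the main fit only. Over the whole course, 4 against 0 h, 8 members were lower, against 31.6%, and 0 higher by the 3 criteria, against 28.7%.

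**Figure D1:**
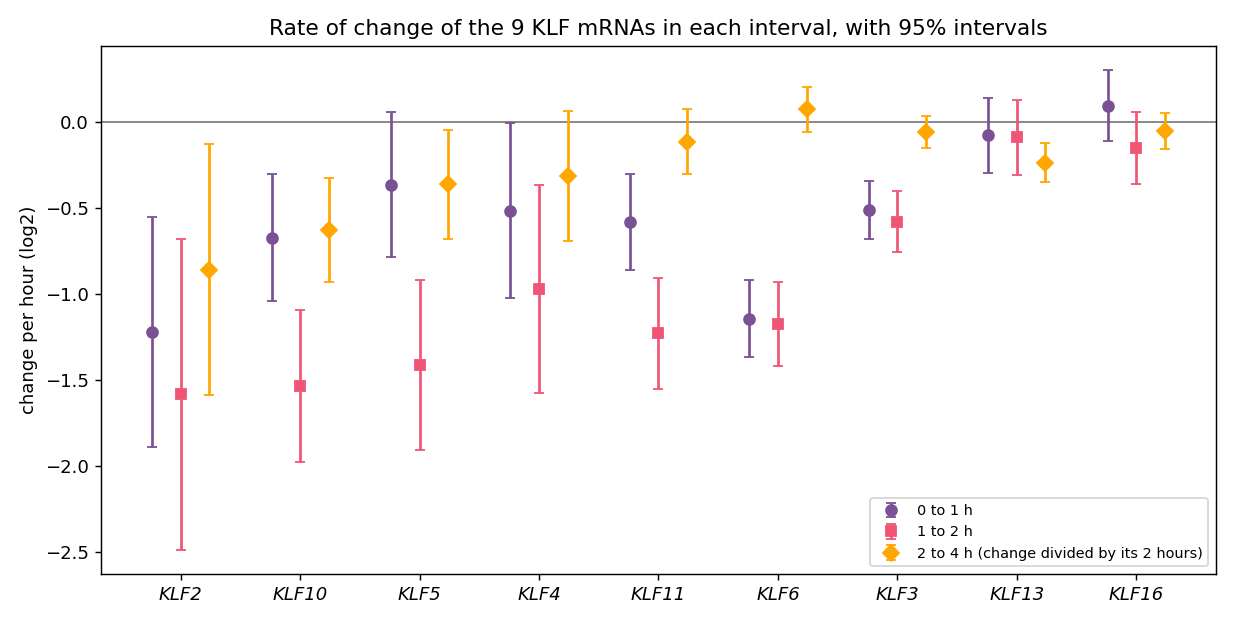
Change per hour in log2 units (y axis) of the 9 KLF mRNAs (x axis) from 0 to 1 h, 1 to 2 h and 2 to 4 h of ActD, with 95% intervals from edgeR; the last change, in log2 units, is divided by its 2 hours. KLF6, KLF3 and KLF11 return to near 0 in the last interval, and KLF13 shows its largest drop there.

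Whether the rate changed over the course was tested as the rate per hour from 2 to 4 h minus that from 0 to 2 h. The difference was above 0, meaning a slower loss late, in 3 members, against 2.12% of all genes, and below 0 in 0 members by edgeR, at an unadjusted p under 0.05 or by DESeq2, against 0.341%. KLF6 had the largest difference, 1.23 log2 units per hour (SE 0.10, adjusted p = 5.02e-05). KLF11 differed by 0.79 (SE 0.14, adjusted p = 0.00757) and KLF3 by 0.49 (SE 0.07, adjusted p = 0.00252). The call of KLF6 held in each alternative scaling, filter, test, block and omission of a replicate, whereas KLF3 and KLF11 lost theirs without replicate 1 or replicate 2, which left 1 member called, and KLF11 lost its call without replicate 3, which left 2. KLF2, KLF4, KLF5 and KLF10 had differences of 0.43 to 0.54 that did not pass, KLF13 had -0.15 (adjusted p = 0.730) and KLF16 -0.03.

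All slopes depended on the scaling by nearly the same shift. GAPDH and ACTB themselves had slopes of 0.15 and 0.12, and scaling to their counts moved the slopes of all genes by a median of -0.14, so that 7729 genes fell and 112 rose in place of 3859 and 3694. With this scaling the 9 members all fell, and KLF16, at -0.19 against a median of -0.13 over all genes, remained the flattest. Library totals moved all slopes by a median of -0.04. The first-hour change of KLF16 was 0.09 with TMM and -0.02 with GAPDH plus ACTB scaling, neither of them called.

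**Figure D2:**
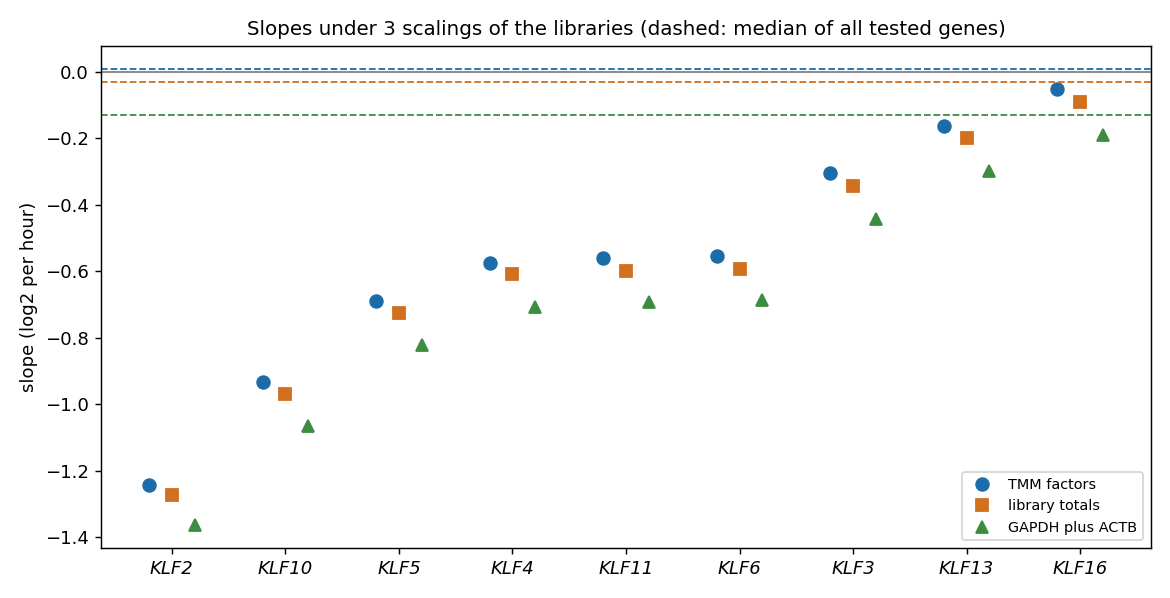
Slope in log2 units per hour (y axis) of the 9 KLF mRNAs (x axis) with libraries scaled by TMM factors, by library totals or by GAPDH plus ACTB counts; dashed lines give the median of all tested genes in the same colours. The 9 points move down together, by a median over all genes of -0.04 and -0.14, and KLF16 stays nearest to the dashed line of its colour.

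The remaining KLF genes of the table were sparse or fell. Of the 7, KLF7, KLF12 and KLF15 were tested and all 3 fell, against 32.1% of all genes, with slopes of -0.18, -0.15 and -0.42, while KLF1 and KLF17 had at most 2 counts in a library and KLF8 and KLF14 had 0 in all. KLF7 had a slope of -0.51 on 0 to 2 h alone and -0.04 with 1, 2 and 4 h, where the call was lost (adjusted p = 0.599), and it was also lost without replicate 2 (0.0632). KLF12 lost its call on 0 to 2 h alone (-0.12, adjusted p = 0.143). Among the related SP factors, which bind the same GC boxes, 3 of 4 tested genes fell, SP1 (-0.38), SP3 (-0.30) and SP4 (-0.29), against the same share of all genes.

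The genes of partners of the KLF proteins moved in both directions. Their counts stand against 32.1% of all genes that fell and 30.7% that rose with TMM scaling, and against 64.2% and 0.931% with GAPDH plus ACTB scaling. Of 14 corepressor genes, 4 fell and 9 rose with TMM scaling, with a median slope of 0.06. With GAPDH plus ACTB scaling 9 fell and 0 rose, with a median of -0.08. The share that fell was near that of all genes under both scalings. The share that rose was above that of all genes with TMM scaling only. SIN3A, the scaffold that KLF9, KLF10, KLF11, KLF13 and KLF16 bind, fell at -0.60 (SE 0.0438, adjusted p = 1.09e-08), and SAP30, a subunit of the same complex, fell at -0.15 (-0.10 on 0 to 2 h alone, adjusted p = 0.2085). HDAC1, its deacetylase, rose at 0.13 (SE 0.0238), a slope that was -0.0050 with GAPDH plus ACTB scaling. Of 5 coactivator genes, 3 fell and 2 rose with TMM scaling, and 3 fell and 0 rose with GAPDH plus ACTB scaling. The acetyltransferases CREBBP (-0.47), EP300 (-0.41) and KAT5 (-0.34) were the 3 that fell with TMM scaling; on 0 to 2 h alone KAT5 had -0.15 (adjusted p = 0.0602) and CREBBP -0.31.

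Of 9 ubiquitin ligase genes tested, among them ligases known to target KLF proteins, 7 fell and 1 rose with TMM scaling, against 32.1% and 30.7% of all genes, and all 9 fell with GAPDH plus ACTB scaling, against 64.2%. SIAH1 had the steepest slope, -0.74 (SE 0.0709, adjusted p = 1.86e-07), SMURF2 had -0.27 and FBXW7, a ligase for KLF2 and KLF5, had -0.24. The FBXW7 slope was -0.56 on 0 to 2 h alone and -0.09 with 1, 2 and 4 h, where it was not called (adjusted p = 0.2255). In the ERK5 pathway, which induces KLF2 and KLF4 through MEF2 factors, 3 of 7 genes fell and the other 4 did not pass, against 32.1% of all genes that fell. With library totals 4 fell, against 39.1% of all genes, and with GAPDH plus ACTB scaling 5 fell, against 64.2%. Those that fell were MAPK7, the gene of ERK5 itself (-0.25), MEF2D (-0.23) and MAP3K2 (-0.12). The median slope of these 7 was -0.04, and that of all genes was 0.01. By the slope over 0 to 4 h, the steepest KLF members, KLF2 and KLF10, thus fell beyond every gene named from these lists. The order of the members depended on the times used. On 0 to 2 h alone KLF2 had -1.35, KLF6 -1.15 and KLF10 -1.04.

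The genes whose course was nearest to that of a member were found by Euclidean distance between the mean levels at the 4 times, as log2(CPM + 0.5) and with each gene centred on its own mean. The 5 nearest to KLF2 were ARRDC3, PDE4B, OTUD1, RGS2 and MED26, with slopes from -1.13 to -0.85 and distances from 0.120 to 0.275. At 4 h KLF2 averaged 0.245 CPM, below the added 0.5, so its fall was compressed on this scale. The fitted slope of KLF2, -1.24, was steeper than that of each of these 5 genes, and ARRDC3, the nearest, had -0.85. Those nearest to KLF16 were TMEM39B, FHL2, WDR92, BMPER and IGHMBP2, with slopes from -0.12 to -0.04 and distances from 0.0218 to 0.0303. The likeness is over 4 time points measured in the same 12 libraries, and no test was run on it.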

How the data were processed

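The authors deposited one table of raw counts of reads per gene symbol for the 12 poly(A)-selected, stranded libraries. The submitters' processing notes name FastQC, STAR and hg19, and the paper describes a Salmon pipeline on GRCh38 for such libraries; which of these made the counts, and the strand setting, are not given in the sources used here. Samples were grouped by the time point in the labels. Counts were tested with edgeR 4.0.16 (R 4.3.3; TMM, genes averaging 10 or more counts, glmQLFit and glmQLFTest), with time as a number or as 4 groups and no block, and p-values were adjusted by Benjamini-Hochberg over 12032 genes. Totals of 9147018 to 11194705 counts set the precision, and counting intervals are 95% and cover counting error only. Replicate numbers in the labels pair the samples: same-numbered libraries deviated together from the group means in each of 18 pairs (r 0.323 to 0.633), against -0.419 to 0.090 in 36 other pairs. Within each time point, replicates were further apart than counting noise (chi-square per degree of freedom 3.20 to 8.65). Alternatives were DESeq2 1.42.0, other scalings, filters and time points, the replicate block and leaving out each replicate. Gene models and 3′UTRs came from GENCODE on GRCh38, matched by symbol. The text names the 10 members, and from each list the genes past the threshold among the 3 steepest slopes; KLF3-AS1 and the marker genes were named after their values were seen. The steps were tested on simulated data. The members and lists were chosen with earlier results of these data known.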

Additional observations from a re-analysis of the deposited data

How the results depend on the processing

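The count of members falling over the course was 8 and ranged from 6 to 9 over the alternatives, the 6 coming from a limit of 50 mean counts, under which fewer members were tested. The share of all genes that fell moved as well. It was 32.1% in the main fit, 18.4% with 0, 1 and 2 h only and 64.2% with GAPDH plus ACTB scaling. Counts of members lower at 1 h (3) became 5 with GAPDH plus ACTB scaling, 5 with the replicate block and 0 to 2 with a replicate left out. Those lower at 2 h than at 1 h (7) became 5 or 6 with a replicate left out, 6 with DESeq2 and 5 at a limit of 50 mean counts. Those lower at 4 h than at 2 h (2) became 7 with GAPDH plus ACTB scaling, 4 with the replicate block and 0 to 2 with a replicate left out. Those with a changed rate (3) became 1 to 2 with a replicate left out. For the intervals and the rate, the share of all genes is given for the main fit only, so the moved counts cannot be set against it. GAPDH plus ACTB scaling moved the slopes of all genes by a median of -0.14. Whether the moves of these counts are particular to the members was not tested. The replicate block changed no other call than those of KLF2, KLF5, KLF10 and KLF16 given beside their values. Signs turned with GAPDH plus ACTB scaling for KLF16 from 0 to 1 h (-0.022), KLF6 from 2 to 4 h (-0.16) and HDAC1 (-0.0050). With a replicate left out, KLF16 ranged from -0.22 to 0.015 from 2 to 4 h and from -0.12 to 0.057 in its difference in rate, the upper values without replicate 1. None of these turned values was called, and the cause was not tested. Counts under 10 at 4 h limit KLF2, KLF4 and KLF9.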
